A study of Brassica juncea with 9 samples.

Results

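Of the 43603 leaf-array probes, 46 were detected in every control and every salt plant and in no alkaline salt plant. A probe counted as detected when the scanner software marked its spot as well above background, and the 46 were chosen by that mark alone: present on all 3 control and all 3 salt arrays, absent on all 3 alkaline salt arrays. They carry 46 different transcript identifiers, 1 spot each. The falls in alkaline salt described here are therefore what chose the probes, and are given as a description without a test. The choice asked the same of control and salt plants, so salt against control is the comparison that could be tested. That test is limited too, since any probe that NaCl took below detection was not chosen.

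The plants were Brassica juncea (Indian mustard), genotype NDR8501, grown in hydroponic culture in a glasshouse. Controls stayed in a slightly acidic nutrient solution (0 mM NaCl, 0 mM bicarbonate), salt plants had 50 mM NaCl, and alkaline salt plants had 50 mM NaCl in a solution buffered with 2.5 mM bicarbonate, each for 4 weeks, to a plant age of 5 weeks. Each group had 3 biological replicates, each replicate was a middle, fully expanded leaf of a single plant, and each RNA was hybridised to 1 array. No table used here gives a gene name, a description or a sequence for any probe. The probes are therefore reported by array identifier, no function can be given, and the leaf label could not be checked against leaf marker genes.

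Bicarbonate is the ion that makes saline water alkaline. It buffers the root medium at a high pH, at which iron, zinc and phosphate are less available to roots, and it is known for causing yellowing of young leaves in many crops, beside the osmotic and ionic load that NaCl imposes. Brassica juncea is an allotetraploid oilseed with A and B subgenomes, so a short oligonucleotide probe may bind transcripts of more than 1 gene copy. A whole leaf was measured, so fewer cells of a type and less RNA per cell cannot be told apart.

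The arrays differed in how low they could see. Between 16799 and 22063 probes were detected per array. Levels are log2 processed intensities scaled so that 0 is the 75th percentile of the array they come from. On this scale the lowest signal of any detected probe was −2.14 in alkaline salt replicate 1, −2.08 in replicate 2 and −3.78 in replicate 3. In the control and salt plants it lay between −3.55 (salt replicate 2) and −2.06 (salt replicate 1).

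The 46 probes were well measured in control and salt leaves and near the background in alkaline salt leaves. Their median level was −0.16, 0.11 and −0.73 in control replicates 1 to 3, and −0.47, −0.40 and −0.33 in salt replicates 1 to 3. In alkaline salt replicates 1 to 3 it was −4.02, −4.29 and −4.05. In processed intensity these medians were 801, 1401, 987, 774, 317 and 1393 in the 6 control and salt plants and 54.6, 84.1 and 53.3 in the alkaline salt plants. The median ratio of a member's signal to the scanner's own error estimate was 7.56 to 9.66 on control and salt arrays and 1.00 to 2.43 on alkaline salt arrays.

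**Figure D1:**
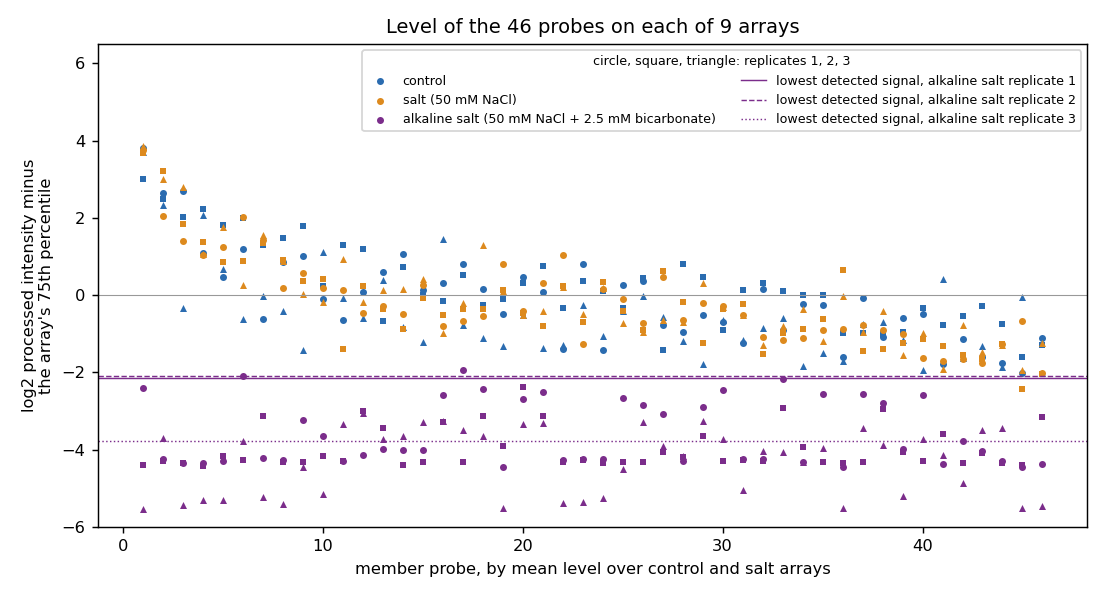
Level of each of the 46 probes (horizontal axis, ordered by mean level over control and salt arrays) on each of the 9 arrays, as log2 processed intensity minus the array's 75th percentile. Circles, squares and triangles are replicates 1, 2 and 3; horizontal lines mark the lowest detected signal on each alkaline salt array. Every alkaline salt point lies below the 6 control and salt points of its probe. Some alkaline salt circles and triangles lie above the line of their own array because the detection mark is set spot by spot.

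"Lost" would say more than these arrays show. The same software also marks spots as positive and significant over background, a weaker mark than well above background. By it, 9 of the 46 probes had signal on none of the 3 alkaline salt arrays, 10 on 1, 18 on 2 and 9 on all 3. On single arrays, 23, 18 and 32 members carried that mark in alkaline salt replicates 1 to 3. Against the spots that match no transcript, 15, 19 and 12 members lay at or below the median of the 153 negative control spots, and 0 did so in any control or salt plant. The probes thus ranged from no measurable signal to a dim one, and they are called here the alkaline-salt-undetected probes.

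Because the alkaline salt signals lie near background, the size of the fall is given as a lower bound. The bound sets the mean of the brighter group against the mean, over the alkaline salt arrays, of the higher of the probe's own signal and the lowest detected signal on that array. Control leaves were at least 2.13-fold to at least 72.3-fold brighter than alkaline salt leaves, with a median bound of 4.65-fold. Salt leaves were at least 1.86-fold to at least 86.4-fold brighter, with a median bound of 4.70-fold. The bound reached 4-fold for 28 probes against control and 29 against salt, and 16-fold for 4 probes in each. These bounds depend on the processing. An alternative, called normexp here, combined normexp background correction of median spot signals, an offset of 50 and quantile normalisation. With it the median bound was 1.05 on the log2 scale against control, where the main value was 2.22. Against salt it was 0.97, where the main value was 2.23. Quantile normalisation alone gave 2.26 and 2.27. Which of the other changes lowered the bounds was not tested.

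**Figure D2:**
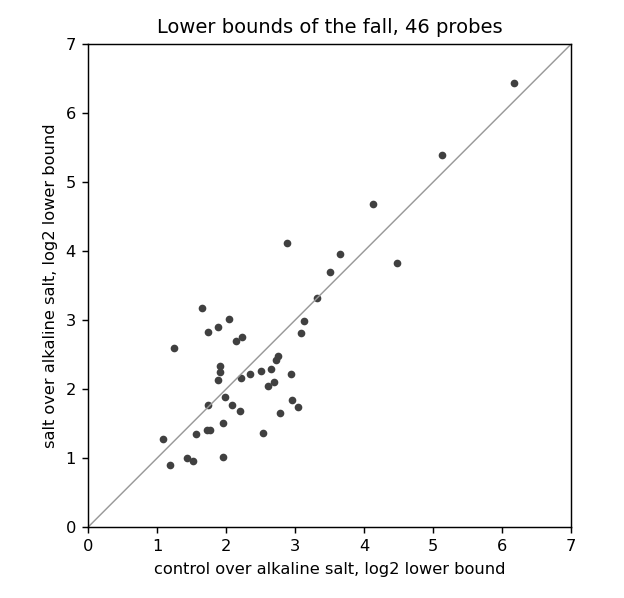
Lower bound of the fall of each of the 46 probes, on a log2 scale, from control to alkaline salt (horizontal) and from salt to alkaline salt (vertical); the line marks equal bounds and both axes share the alkaline salt arrays. Bounds run from 1.09 to 6.18 against control and from 0.90 to 6.43 against salt, and most probes lie between 1 and 4 on both.

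The fall was widest for A_46_P028306 (transcript identifier EV113300). Its level was 3.80, 3.02 and 3.71 in control replicates 1 to 3, 3.76, 3.68 and 3.86 in salt replicates 1 to 3, and −2.40, −4.39 and −5.53 in alkaline salt replicates 1 to 3. The control and salt plants overlapped, and the dimmest of them was at least 34.3-fold brighter than every alkaline salt plant, with undetected signals raised to their array's lowest detected signal. In processed intensity the 6 control and salt values ran from 5365 to 25494 and the alkaline salt values were 167, 78.3 and 19.0. Its mean was 3.51 ± 0.43 (SD, n = 3) in control and 3.77 ± 0.09 in salt leaves, which gives bounds of at least 72.3-fold and at least 86.4-fold over alkaline salt. With normexp these bounds were 19.6-fold and 24.4-fold.

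A_46_P143899 (TA23684_3708) followed, with at least 35.1-fold over alkaline salt in control and at least 42.0-fold in salt leaves, or 8.81-fold and 11.5-fold with normexp. Its levels were 2.65, 2.49 and 2.33 in control plants, 2.04, 3.21 and 3.0 in salt plants, and −4.23, −4.30 and −3.70 in alkaline salt plants. Control values lay inside the range of the salt values, and the dimmest of these 6 plants was at least 17.4-fold brighter than every alkaline salt plant. In the authors' value table, which holds log2 values normalised between arrays, it averaged 12.6 ± 0.13 (SD, n = 3) in control leaves, 12.9 ± 0.68 in salt leaves and 5.67 ± 0.35 in alkaline salt leaves.

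All measured alkaline salt signals of a member lay below its 6 control and salt signals. For comparison, 19.2% of all tested probes were lower in alkaline salt than in control without overlap, and 19% lower than in salt. With undetected signals raised to their array's lowest detected signal, the dimmest control or salt plant was still at least 2-fold above every alkaline salt plant for 18 probes and at least 4-fold above for 4, and for 1 probe this left no gap. In the fit across all probes, limma called all 46 lower in alkaline salt than in control leaves, where 9.86% of the 17798 tested probes were called lower, and all 46 lower than in salt leaves, where 7.24% were. The choice of the probes strongly favoured these counts, so they are not a separate test of the fall. Each of the 3 slides held 1 array of every group. Because the groups did not overlap, all 46 were necessarily lower in alkaline salt than in control and than in salt on every slide. Of all tested probes, 29.1% were lower than in control on all 3 slides and 26.8% lower than in salt. Over the 46, the median log2 differences on slides 1 to 3 were −3.19, −4.06 and −3.30 against control. Against salt they were −3.37, −3.54 and −3.78. Those differences use the measured signals, those at background included.

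The choice of probes leaned on single arrays, and on alkaline salt replicate 3 most. Choosing on the other 8 arrays gave 52 probes without alkaline salt replicate 1, 48 without replicate 2 and 164 without replicate 3. It gave 84 without control replicate 3 and 77 without salt replicate 1, and 46 to 56 without any other control or salt array. The array left out in each case played no part in the choice. The 6 control and salt arrays that a left-out alkaline salt array was compared with did. The comparison is therefore only partly free of the choice, and the probes it is set against were not matched for brightness. For the 52 probes chosen without alkaline salt replicate 1, that plant lay below all 6 control and salt plants in 49, or 94.2%, against 24.5% of all 15310 probes detected in the 6 plants. For the 48 chosen without replicate 2 it did so in 47, or 97.9%, against 27.7%.

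The probes chosen without alkaline salt replicate 3 showed a smaller fall in the plant left out. Of the 164 probes chosen without it, 46 were undetected in that plant, and 137, or 83.5%, lay below all 6 control and salt plants, against 31.3% of all probes detected in the 6. The median difference from the mean of the 6 plants was −1.78 on the log2 scale there, against −2.96 for replicate 1 and −3.63 for replicate 2. These medians are over different probe sets, of 164, 52 and 48 probes. Over the 46 probes, all chosen as undetected in replicate 3, its median level was −4.05. Replicates 1 and 2 had −4.02 and −4.29. The replicate 3 array also detected more probes, 21016 against 17209 and 17500, and reached lower signals. The part of this reach in the difference was not tested.

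Just outside the choice lay 126 probes detected in all 6 control and salt plants and in 1 alkaline salt plant, which was replicate 3 for 118 of them. Their median difference was −1.80 on the log2 scale against control and −1.66 against salt, where the chosen probes had −3.60 and −3.41. Measured from the lowest detected signal of the array, the brightest alkaline salt value of a chosen probe ran from 1.74 below to 0.72 above on the log2 scale, and that of the 126 from 0.10 to 3.37 above. A further 84 probes missed the choice by 1 undetected control or salt plant, which was control replicate 3 for 38 and salt replicate 1 for 31.

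Set beside other detection patterns, undetected in alkaline salt alone was a small class, and its mirror was larger. The 46 were 0.3% of the 15310 probes detected in all control and salt plants, and 14476 of these were also detected in all 3 alkaline salt plants. In the opposite pattern, 109 probes were detected in all 3 alkaline salt plants and in no control or salt plant. When salt or control was the odd group out, 4 probes were undetected in salt alone, 4 detected in salt alone, 4 undetected in control alone and 3 detected in control alone. These counts were not tested against each other.

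The alkaline-salt-undetected probes were mostly dim ones. By mean signal over control and salt plants, 25 of them were among the dimmest 25% of the 15310 probes and 2 among the brightest 25%. A probe's brightness also depends on its own sequence, so this ranks spots, not transcripts. A dim probe needs a smaller fall to pass below detection, and how far this set the makeup of the group was not tested.

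None of the 46 was called in salt against control leaves, but very few of all tested probes were. In salt against control leaves, limma called 0 of them higher and 0 lower at an adjusted p under 0.05, where 0.0112% and 0.0225% of all tested probes were called; their smallest adjusted p was 0.511. The 0 calls therefore do not set the members apart from the other probes. At an unadjusted limma p under 0.05, 4 members were higher and 4 lower, or 8.7% each, where 2.29% and 3.6% of all tested probes were. The difference between these shares was not tested. The median difference over the 46 was −0.18 on the log2 scale, with 19 probes higher and 27 lower, against a median of −0.04 over all tested probes. The median 95% interval of a member reached 1.02 on either side on the log2 scale before any adjustment.

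**Figure D3:**
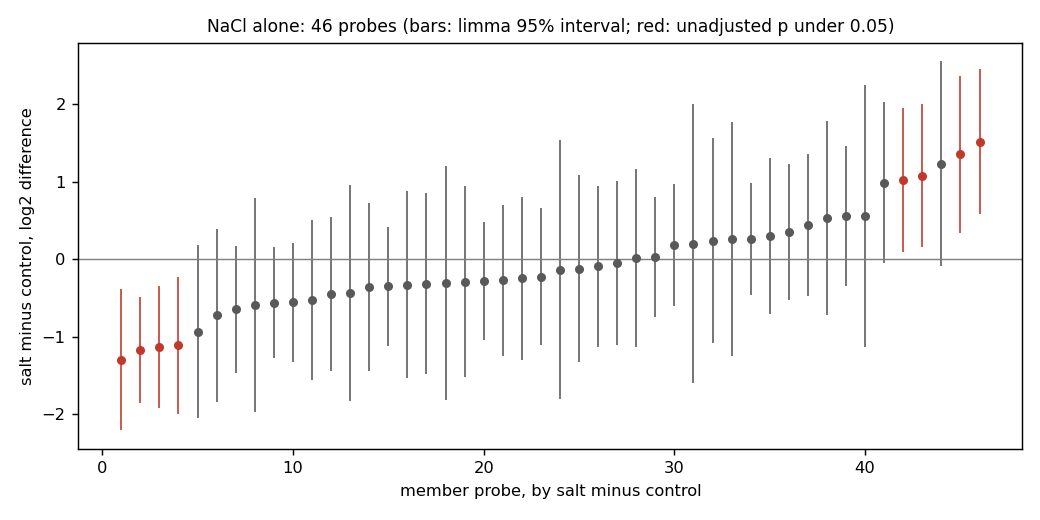
Salt minus control difference of each of the 46 probes on the log2 scale, ordered by size, with the 95% interval from limma (3 plants per group). Values run from −1.30 to 1.51; the 8 probes at an unadjusted p under 0.05 are red, and 0 passed after adjustment over all tested probes.

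The members with the highest salt values relative to control were A_46_P051891 (EV098924) and A_46_P256674 (DY023943). A_46_P051891 had levels of −1.40, −0.34 and −1.30 in control plants, 1.04, 0.25 and 0.22 in salt plants, and −4.27, −4.34 and −5.39 in alkaline salt plants. All 3 salt plants lay above all 3 controls, a log2 difference of 1.51 (SE 0.41, limma adjusted p = 0.544), or 2.85-fold. Its 95% interval, 0.58 to 2.45, was not adjusted for naming this probe as the largest difference among the 46. Its salt leaves were at least 8.97-fold brighter than alkaline salt leaves, and its controls at least 3.14-fold (3.74-fold and 2.02-fold with normexp).

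A_46_P256674 had levels of −1.59, −0.98 and −1.71 in control plants, −0.87, 0.65 and −0.02 in salt plants, and −4.44, −4.34 and −5.50 in alkaline salt plants. Again the salt plants lay above the controls, with a log2 difference of 1.35 (SE 0.45, limma adjusted p = 0.702). Neither difference passed the test. Over all 46 probes, the salt plants lay wholly above the controls for 6 and wholly below for 4, where 4.03% and 6.2% of all tested probes did.

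Control plants varied more than salt plants for these probes. The median SD over 3 plants was 0.68 in control and 0.33 in salt leaves, where all probes detected in the 6 plants had 0.30 and 0.24. The control SD was the larger for 40 of 46 members and for 60.3% of all those probes. From the dimmest to the brightest of the 6 plants, a member spanned a median of 3.22-fold. More than 4-fold was spanned by 16 members and by 6.32% of all those probes. The probes compared were not matched to the members in brightness.

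Much of this spread lay between control replicates 2 and 3. Control replicate 2 was the brightest of the 6 plants for 19 members and control replicate 3 the dimmest for 17. Among probes detected on all 9 arrays, this was so for 16.7% and 19.6%. Replicate 2 was brighter than replicate 3 for 36 of 46, by at least 2-fold for 24, with a median difference of 1.07 on the log2 scale, while among probes detected on all 9 arrays it was the brighter for 46.4%. Between salt plants the median differences were 1.01-fold to 1.08-fold. The direction of the salt comparison follows which control is used: within slides the median salt minus control difference was −0.21, −0.59 and 0.57 on the log2 scale on slides 1 to 3. Leaving out control replicate 2 gave 0.09 and leaving out control replicate 3 gave −0.44, so no direction can be given for the members under NaCl.

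**Figure D4:**
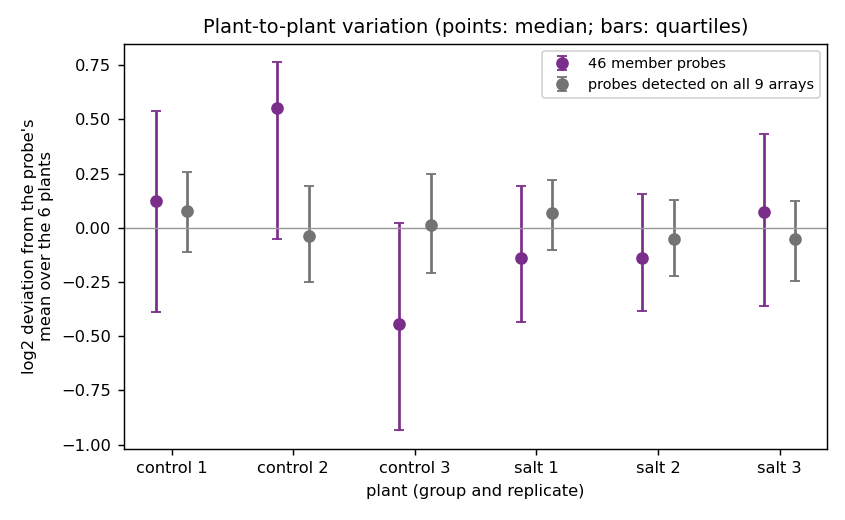
Deviation of each control and salt plant from a probe's mean over the 6 plants, on the log2 scale, as median (points) and quartiles (bars) over the 46 member probes and over the probes detected on all 9 arrays. The members' medians run from −0.44 in control replicate 3 to 0.55 in control replicate 2, while those of the other probes stay between −0.05 and 0.08.

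Other probes for the same transcript identifiers gave a mixed picture. They exist for 7 of the 46 members, 11 probes in all, measured on the same plants but not used in the choice. For 1 identifier all 3 other probes were dimmer in every alkaline salt plant than in the 6 others, by 3.38-fold, 4.76-fold and 5.52-fold against control and by 3.87-fold, 4.20-fold and 4.23-fold against salt. In the same order, 3, 2 and 1 alkaline salt plants detected them, so the 2 larger control folds include undetected signals. The member's own bounds were 3.73-fold against control and 4.75-fold against salt, a different measure from these measured folds. Its measured log2 differences, background signals included, were −3.76 and −4.10. Those of the 3 other probes were −1.76 to −2.47 against control and −1.95 to −2.08 against salt.

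For 2 other identifiers the second probe was detected on all 9 arrays and hardly differed between groups. These second probes were much brighter than the members, with mean control levels of 7.80 and 6.01 against −0.92 and −0.93. For the second probes, control leaves were 1.03-fold and 0.96-fold the alkaline salt leaves, with overlapping groups. The members' own bounds were 3.31-fold and 3.34-fold against control. For another 2 identifiers the second probe was dimmer in alkaline salt with no overlap, by 2.77-fold against control for the one, which was detected on all 9 arrays, and by at least 2.45-fold for the other, which no alkaline salt plant detected. The remaining 4 probes, for 2 identifiers, were detected in all 3 plants of no group, and 2 of these were detected on no array. The other probe of the identifier with those 2 was detected in 2 control, 2 salt and 0 alkaline salt plants. It was dimmer in alkaline salt with no overlap, by at least 2.18-fold against control and at least 1.64-fold against salt. The last probe was detected in 1 control plant only, and its groups overlapped. Which transcript forms or gene copies each probe of an identifier measured was not tested.

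**Figure D5:**
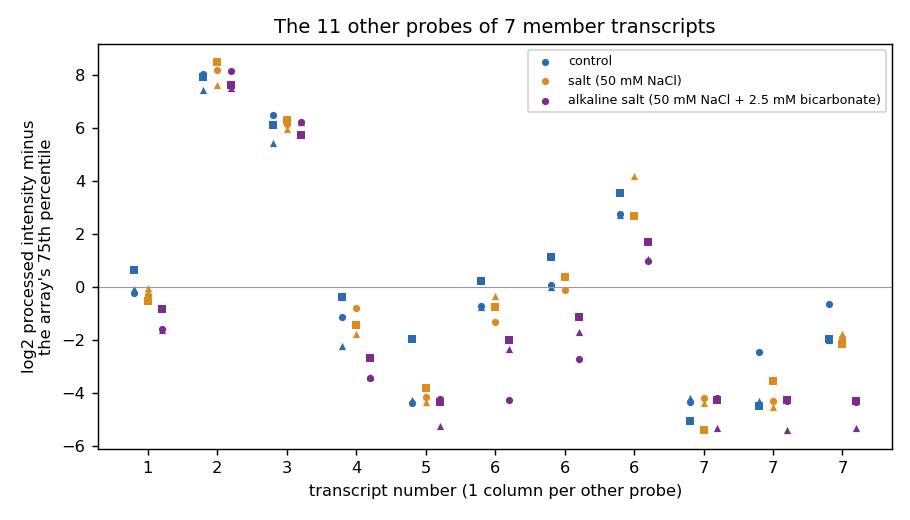
Levels of the 11 other probes of the 7 member transcripts that have any, 1 column per probe, as log2 processed intensity minus the array's 75th percentile; colours are groups and symbols are replicates 1 (circle), 2 (square) and 3 (triangle). The 3 probes of transcript 6 are all lower in alkaline salt, and those of transcripts 2 and 3 lie together in all groups.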

How the data were processed

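Spot intensity on a linear scale came from the deposited scanner files, which Agilent Feature Extraction made for 1 dye, per the file headers; these headers and the submitters' processing notes name different versions. Per the file headers, that program subtracted the background and removed spatial trends inside each array; the deposited intensity was not normalised between arrays. The other deposited columns used are flags of 0 or 1 per spot. The authors' value table holds log2 values whose making is not given in the sources used here; its columns matched quantile-normalised log2 processed intensities within 0.0891. Scan dates in the headers precede the growing period in the labels.

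Of 45220 spots, 1417 controls were left out, and 71 spot values marked as outliers were set to missing; 0 gene spots were saturated. Repeated spots were averaged. Each array's 75th percentile was subtracted from its log2 processed intensities. A probe was tested if detected on all 3 arrays of at least 1 group (17798 probes, all 46 members included). Group means were fitted to all 9 arrays with limma 3.58.1 in R 4.3.3, two-sided, with Benjamini-Hochberg adjustment over all tested probes, without a block. The fit was tested on simulated data with independent normal noise and no detection floor. That test could not check the fit for signals at background. SDs are between plants, and 3 arrays per group limit the precision.

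The members were chosen with earlier results of these data known. Named probes followed a fixed rule: the 2 members with the largest bound against salt and the 2 with the largest salt minus control difference. Gene lists and markers, being lists of gene names, could not be applied. Arrays with the same replicate number shared a slide; deviations from the group means, set against each other for arrays of 1 number, had correlations of −0.144 to 0.290, so the numbers were not treated as pairs. Figures were drawn with matplotlib 3.10.9.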

Additional observations from a re-analysis of the deposited data

How the results depend on the processing

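In salt against control, 0 members were called higher and 0 lower under all 10 alternatives and without any single array. With the replicate number, which is also the slide, as a block, limma again called 0 and 0 (10 members at an unadjusted p under 0.05), and all 46 stayed lower in both alkaline salt comparisons; over all tested probes the salt calls were 2 higher and 4 lower without the replicate block, 0 and 0 with it, and 24 and 39 with median scaling. Alkaline salt calls were 44 to 46 against control and 40 to 46 against salt over all alternatives and left-out arrays. Choosing the probes by a common floor at −2.06 gave 107, of which 43 were among the 46. The positive and significant mark gave 43, of which only 9 were. Leaving out single arrays gave 46 to 164. Normexp gave median fitted log2 differences of −1.22 against control and −1.11 against salt, median bounds of 1.05 and 0.97 and smallest bounds of 0.55 and 0.35, where the main smallest bounds were 1.09 and 0.90; the cause was not tested. The bounds of the named probes fell with it as well. Without single arrays the median bound ran from 1.73 to 2.57 against control and from 1.72 to 2.47 against salt, and the smallest from 0.63 to 1.32 and from 0.34 to 1.19. No named probe changed direction in any comparison. Signals at background limit every alkaline salt value to a bound.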

Other observations

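The members were spread over the array surface: divided into 4 blocks by row and column, it held 7, 11, 11 and 17 of them, where each block holds 24.7% to 25.3% of all probes. By the form of identifier, 13 of 46 (28.3%) were TA assemblies, 3 (6.52%) TC assemblies and 30 (65.2%) single accessions, against 23.6%, 14.0% and 62.4% of the 15310 probes detected in all control and salt plants.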
